A study of Homo sapiens with 13 samples.

Results

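Keratin genes were examined in maps of accessible chromatin from the small cell lung cancer (SCLC) cell lines H82 and H146. The members were all protein-coding genes of GENCODE release 44 on chromosomes 12 and 17 whose symbol is KRT followed by a number, which gave 55 of 20007 protein-coding genes. Of these, 27 lay on chromosome 12 and 28 on chromosome 17. Keratin-associated proteins (KRTAP genes) were not members. Within the 55, the simple-epithelial keratins KRT7, KRT8, KRT18 and KRT19 were set against the other 51.

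ATAC-seq, in which a transposase cuts and tags DNA that is not packed into nucleosomes, had been applied to 4 untreated H146 libraries, 3 H146 libraries after FHD-286 at 100 nM for 14 days, 3 untreated H82 libraries and 3 H82 libraries after that same exposure. Both lines are established human SCLC lines, labelled WT for genotype. FHD-286 blocks SMARCA4 and SMARCA2, the motor subunits of SWI/SNF chromatin remodelling complexes, and was renewed during the exposure. By the study's methods, 3 H146 controls formed one sequencing batch, and the remaining control shared the other batch with the treated H146 cells. The values used here were 1 pooled list of regions per line.

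Keratins are the intermediate filament proteins of epithelial cells. A filament is built from pairs of 1 acidic type I and 1 basic type II chain, and the genes of each type sit in a cluster, type I on chromosome 17 and type II on chromosome 12. KRT18 is the exception, a type I gene next to its partner KRT8 in the type II cluster. Simple epithelia use KRT8 and KRT18, with KRT7 or KRT19 in ducts and airways. Stratified epithelia use KRT5 and KRT14 in the basal layer and other pairs above it, while hair and its inner root sheath have keratins of their own. SCLC is a neuroendocrine carcinoma, and pathologists commonly find simple-epithelial keratins in it as dots beside the nucleus.

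A region stood in a list if it had been called in any library of the line, treated or not. The lists carried no height, read count or library, so the depth behind a region was unknown, no value had a spread between replicates, and FHD-286 was not compared with untreated cells. All comparisons below describe 1 list per line without a test. The line could not be told apart from the number of its libraries, their depth or its DNA copy number. The H82 list held 206927 regions and the H146 list 174093 on the 24 chromosomes used. Of the neuroendocrine markers SYP, CHGA, INSM1 and NCAM1, each had a region in both lines no more than 1 kb from its transcription start site (TSS), and NEUROD1 had one in H82 and none in H146, where 4 regions lay within 10 kb of it.

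The regions near a keratin TSS that 1 line alone held carry the difference between the lines in TSS regions, so 4 of them are shown: KRT7 and KRT4 from H146, and KRT6C and KRT14 from H82. Further regions of 1 line alone lay away from the TSS. The sequences are hg38 bases in the sense of the gene, 5′ to 3′, at most the central 300 bases of a region. None of these bases lay in an annotated exon. Capitals mark the short words searched for (listed with the promoters further on), on either strand.
KRT7 (H146 only, chr12:52232033-52232329, plus strand): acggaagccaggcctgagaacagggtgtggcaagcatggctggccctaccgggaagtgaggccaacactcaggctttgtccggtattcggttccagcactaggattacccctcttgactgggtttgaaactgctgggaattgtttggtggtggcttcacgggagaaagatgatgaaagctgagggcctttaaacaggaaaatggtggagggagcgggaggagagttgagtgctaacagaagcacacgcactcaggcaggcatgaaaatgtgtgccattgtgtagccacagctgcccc
KRT4 (H146 only, chr12:52814396-52814695, minus strand): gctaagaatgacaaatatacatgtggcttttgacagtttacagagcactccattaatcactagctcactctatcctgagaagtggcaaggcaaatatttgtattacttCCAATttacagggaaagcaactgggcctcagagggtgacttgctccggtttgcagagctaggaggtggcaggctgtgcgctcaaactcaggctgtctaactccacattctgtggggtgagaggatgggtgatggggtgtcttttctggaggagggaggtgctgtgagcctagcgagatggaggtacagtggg
KRT6C (H82 only, chr12:52472886-52473140, minus strand): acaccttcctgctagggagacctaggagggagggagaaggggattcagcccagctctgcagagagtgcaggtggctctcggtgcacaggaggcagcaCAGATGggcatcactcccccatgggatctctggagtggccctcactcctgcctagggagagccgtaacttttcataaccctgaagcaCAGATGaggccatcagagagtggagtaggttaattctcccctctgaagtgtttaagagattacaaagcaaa
KRT14 (H82 only, chr17:41587259-41587558, minus strand): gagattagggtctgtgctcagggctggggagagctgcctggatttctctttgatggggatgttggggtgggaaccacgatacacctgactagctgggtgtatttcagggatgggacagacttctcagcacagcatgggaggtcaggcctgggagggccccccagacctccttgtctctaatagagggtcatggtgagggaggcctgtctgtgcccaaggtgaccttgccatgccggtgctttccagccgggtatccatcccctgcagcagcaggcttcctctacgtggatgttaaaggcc

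The KRT7 and KRT14 stretches held 0 of the words, KRT4 held 1 CCAAT, and KRT6C held CAGATG at 2 places. Their GC content was 54.5% for KRT7, 49.7% for KRT4, 54.5% for KRT6C and 58.3% for KRT14. CpG pairs numbered 7 in KRT7, 3 in KRT4, 2 in KRT6C and 4 in KRT14, so none of the 4 stretches was rich in CpG.

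Promoter sequence is shown for contrast from RefSeq (GRCh38.p14), which gave an entry for 34 of the 55 keratins. The 250 bases before the start are printed and none after it. For KRT8 and KRT9, capitals mark bases inside a region in both lines, which were all 250.
KRT8 (chr12:52926470-52926719, minus strand): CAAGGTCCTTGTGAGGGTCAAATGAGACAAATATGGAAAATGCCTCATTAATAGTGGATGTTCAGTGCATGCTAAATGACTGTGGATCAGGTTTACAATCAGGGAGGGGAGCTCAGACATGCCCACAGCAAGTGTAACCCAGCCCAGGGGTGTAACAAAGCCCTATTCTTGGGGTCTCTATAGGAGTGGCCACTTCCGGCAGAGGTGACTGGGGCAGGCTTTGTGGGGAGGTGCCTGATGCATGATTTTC
KRT9 (chr17:41572060-41572309, minus strand): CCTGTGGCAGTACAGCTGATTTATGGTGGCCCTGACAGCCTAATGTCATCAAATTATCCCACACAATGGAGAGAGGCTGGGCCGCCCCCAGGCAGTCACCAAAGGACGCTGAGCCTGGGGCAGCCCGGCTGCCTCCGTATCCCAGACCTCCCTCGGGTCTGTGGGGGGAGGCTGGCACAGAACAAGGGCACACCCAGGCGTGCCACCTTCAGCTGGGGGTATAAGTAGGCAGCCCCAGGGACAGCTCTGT

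In KRT3 and KRT10, which had no region at the TSS in either line, capitals mark the TATA box word.
KRT3 (chr12:52796118-52796367, minus strand): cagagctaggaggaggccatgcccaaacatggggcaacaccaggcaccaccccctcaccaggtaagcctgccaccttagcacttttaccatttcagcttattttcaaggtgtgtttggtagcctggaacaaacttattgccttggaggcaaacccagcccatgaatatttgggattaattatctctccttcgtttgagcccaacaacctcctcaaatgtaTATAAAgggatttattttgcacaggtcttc
KRT10 (chr17:40822615-40822864, minus strand): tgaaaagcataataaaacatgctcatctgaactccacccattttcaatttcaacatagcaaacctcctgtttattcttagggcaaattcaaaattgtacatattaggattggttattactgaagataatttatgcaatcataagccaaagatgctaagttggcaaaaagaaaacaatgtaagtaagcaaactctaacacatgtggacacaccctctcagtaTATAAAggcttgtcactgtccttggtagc

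The TATA word began at -30 in KRT3 and at -29 in KRT10, counted from the first transcribed base as position 0. The RefSeq start of KRT8 lies inside the longer GENCODE gene, whose 5′ end (chr12:52949954) is the TSS used for KRT8 below. It is not the canonical TSS of KRT8 either (chr12:52905076). The bases printed for KRT8 lie more than 10 kb from both. Their region is not among those counted within 10 kb of the TSS used. Entries were missing for KRT7, KRT18, KRT19, KRT80, KRT6A, KRT6B, KRT6C, KRT13, KRT14, KRT15, KRT16, KRT17, KRT1, KRT77, KRT78, KRT81, KRT83, KRT86, KRT72, KRT222 and KRT23.

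Most keratin genes had no accessible region at the TSS, and the simple-epithelial class had the highest share of the keratin classes. In H82, 10 of 55 keratins (18.2%) had a region no more than 1 kb from the TSS, against 80.5% of all protein-coding genes. In H146 it was 14 of 55 (25.5%), against 77.2%. Both lines had one at 8 keratins (14.5%, against 75.4% of all genes), and 39 keratins had none in either line (70.9%, against 17.7%). The other protein-coding genes of the same chromosomes stood near the genome's level, with 79.3% in H82 and 77.5% in H146 on chromosome 12 and 84.5% and 80.7% on chromosome 17.

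Between the lines, 6 keratins had a TSS region in H146 alone (10.9%, against 1.86% of all genes) and 2 in H82 alone (3.64%, against 5.09%). Those of H146 were KRT7, KRT86, KRT5, KRT4, KRT222 and KRT20. Those of H82 were KRT6C and KRT14. The H146-only share stood above the background at this distance, and the H82-only share did not. All 8 of these regions were under 500 bp wide, from 200 bp at KRT86 to 468 bp at KRT20. With regions of at least 500 bp alone, both lines had a TSS region at 8 keratins and 0 were in 1 line only. With the gene 5′ end itself inside a region, H82 had 7 and H146 had 8, with 1 in H146 alone. The excess of H146 at the TSS thus rested on narrow regions and on regions beside the gene 5′ end. The KRT5 region lay beside the gene 5′ end but crossed the canonical TSS of KRT5.

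**Figure D1:**
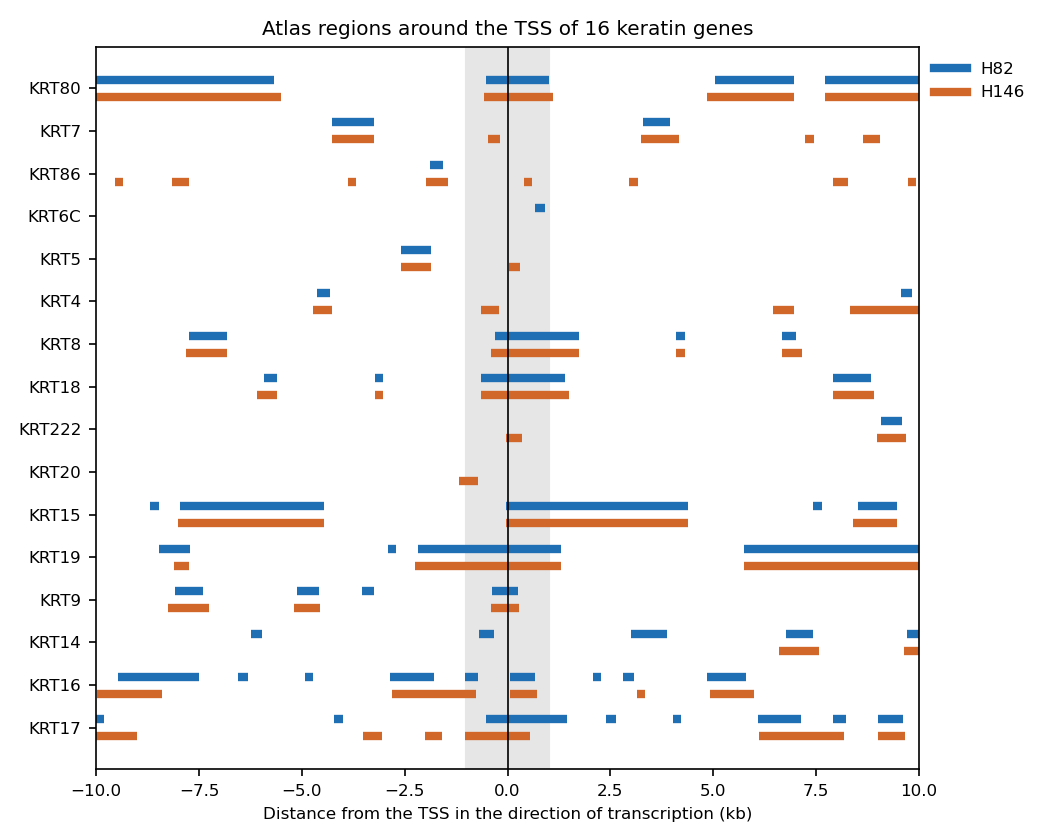
Regions within 10 kb of the TSS of the 16 keratins with a TSS region in either line, drawn as bars in kb along the direction of transcription, H82 in blue above H146 in orange; the grey band marks 1 kb on each side. Wide regions cross the TSS of KRT80, KRT8, KRT18, KRT19 and KRT15 in both lines, while the H146-only regions at KRT7, KRT86, KRT5, KRT4, KRT222 and KRT20 are short bars.

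Of the simple-epithelial keratins, 3 of 4 had a TSS region in H82 (75%, against 80.5% of all genes). In H146 it was 4 of 4 (against 77.2%). Of the other keratins it was 7 of 51 (13.7%) in H82 and 10 of 51 (19.6%) in H146. KRT8 and KRT18, the obligate pair of simple epithelia, shared a single region, since their gene 5′ ends lie 1083 bp apart on opposite strands. It was chr12:52948218-52950255 in H82, 2038 bp wide, and chr12:52948218-52950367 in H146, 2150 bp wide. The region began at the same base in both lines, and relative to KRT18 it ran from -653 to 1384 bp in H82 and to 1496 bp in H146. KRT8 and KRT18 were nevertheless counted as separate genes here. Taken as 1 locus, 9 keratin loci in H82 and 13 in H146 had a TSS region. That alternative was added after the data were seen.

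KRT8 has a long annotated transcript whose 5′ end overlaps KRT18, and its canonical TSS lies 44878 bp away. Both lines had a region within 1 kb of that canonical TSS too. Around the 5′ end, KRT8 and KRT18 each had 4 regions within 10 kb in H82 and 4 in H146. Those regions covered 17.40% of the window in H82 and 19.15% in H146, so the lines were close at this pair.

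KRT19, the smallest keratin and a marker of ductal and airway epithelium, had one of the widest TSS regions. In H82 it was chr17:41527000-41530496 (3497 bp) and in H146 chr17:41527000-41530548 (3549 bp). Within 10 kb, H82 had 4 regions over 43.60% of the bases and H146 had 3 over 40.92%. Part of this share belonged to the region over the neighbouring KRT15.

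KRT7, the type II partner of glandular and ductal epithelium, differed most among the simple-epithelial genes. H146 had a region of 297 bp, from -487 to -191 bp relative to the TSS, and H82 had none within 1 kb. Within 10 kb H146 had 5 regions covering 14.15% and H82 had 2 covering 8.41%. The 2 regions of H82, one from -4256 to -3253 bp and one from 3281 to 3958 bp, both overlapped an H146 region. A further pair of H146 regions lay in introns of KRT7 and had no H82 counterpart. With all 13 annotated transcript starts of KRT7 in place of its 5′ end, H82 also had a region within 1 kb of one.

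Among the 3 keratins grouped here as other simple or glandular, KRT80 stood apart with the highest covered share of any keratin. The grouping was set by list and was not tested in these lines. It was 50.29% in H82 and 52.81% in H146, with 4 regions in each line. Its TSS region ran from -514 to 1004 bp in H82 and from -566 to 1093 bp in H146. KRT20, found in intestinal epithelium and Merkel cells, had 0 regions within 10 kb in H82 and 1 in H146, a 468 bp region from -1185 to -718 bp. KRT23 had 0 regions within 10 kb in both lines.

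Of the 8 basal and activated keratins of stratified epithelium, 5 had a TSS region in H82 and 4 in H146. KRT15, expressed in basal and hair follicle cells, had a region with the same start and end in both lines, chr17:41518137-41522563, 4427 bp wide. It reached from -34 bp at the 5′ end into the gene and also covered the canonical TSS, 3639 bp downstream. At KRT15, 46.52% of the window was covered in H82 and 45.15% in H146.

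KRT16 and KRT17, induced in wounded and inflamed epidermis, had TSS regions in both lines. KRT16 had 9 regions within 10 kb in H82 and 5 in H146, but the covered shares were nearly equal, 28.87% and 27.88%. A pair of H82 regions before the KRT16 TSS both overlapped a single wider H146 region of 2065 bp. At KRT17 the H82 TSS region ran from -534 to 1433 bp and that of H146 from -1027 to 555 bp. KRT17 had 8 regions covering 23.91% in H82 and 6 covering 30.89% in H146.

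KRT14, the type I partner of the basal layer, had more accessible sequence in H82. Its TSS region, in H82 alone, was 378 bp wide and lay from -702 to -325 bp. Within 10 kb there were 5 regions covering 12.49% in H82 and 2 covering 6.71% in H146. Both H146 regions overlapped H82 regions, and 3 of the H82 regions were not in H146.

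KRT5, the type II partner of KRT14, showed the opposite state. H146 had a region of 276 bp from 34 to 309 bp after the gene 5′ end, in an exon, and H82 had none within 1 kb. The canonical TSS of KRT5 lies 136 bp after that 5′ end, inside this H146 region. Of the KRT5 promoter bases before the RefSeq start, 102 lay in it, and 0 lay in an H82 region. Regions within 10 kb numbered 1 in H82 (3.70% covered) and 2 in H146 (5.08%). KRT6C, an activated type II keratin, had a single H82 region of 255 bp within an intron, from 665 to 919 bp after the TSS, and 0 regions within 10 kb in H146. KRT6A, KRT6B and KRT6C, and likewise KRT14, KRT16 and KRT17 with their pseudogenes, are near-identical copies, so the placement of short reads there is uncertain.

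Suprabasal keratins had few TSS regions, 1 of 13 in H82 and 2 of 13 in H146. KRT9, the keratin of palm and sole epidermis, had one in both lines, 628 bp wide in H82 and 684 bp wide in H146, across the TSS. Regions covered 10.56% of its window in H82 and 11.48% in H146. KRT4, the type II keratin of moist mucosae, had a region of 438 bp in H146 alone, from -648 to -211 bp. Of the KRT4 promoter bases, 40 of the 250 before the RefSeq start lay in it, and 0 lay in an H82 region. KRT4 had 2 regions covering 3.03% in H82 and 4 covering 15.42% in H146.

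Hair keratins had a TSS region at 0 of 17 genes in H82 and 1 of 17 in H146. The exception was KRT86, where the 200 bp region lay 404 to 603 bp after the gene 5′ end, in an intron of both KRT7 and KRT86. That 5′ end belongs to a long transcript, and within 1 kb of the canonical TSS of KRT86, 25345 bp away, neither line had a region. Inner root sheath keratins had a TSS region at 0 of 8 genes in both lines. KRT222, a keratin-like gene at the edge of the chromosome 17 cluster, had a 388 bp region across its TSS in H146 alone. The same region lay within 1 kb of the TSS of ENSG00000264058, so it cannot be assigned to KRT222.

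**Figure D2:**
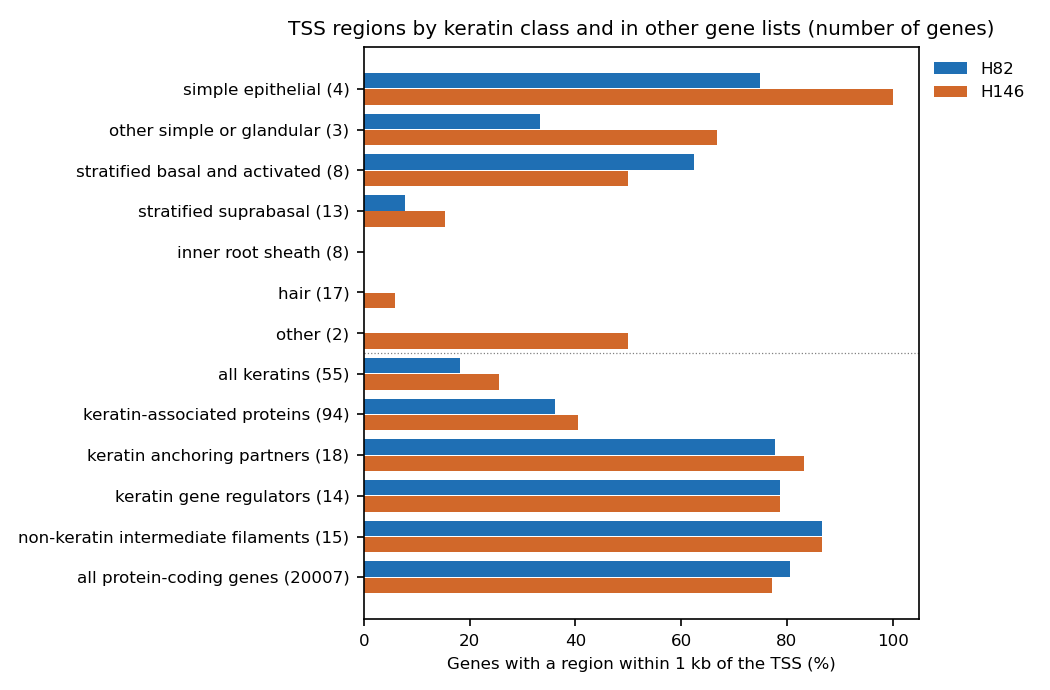
Percent of genes with a TSS region (1 kb limit), H82 blue and H146 orange, for the 7 keratin classes above the dotted line and for all keratins, 4 other lists and all protein-coding genes below it; the number of genes is in parentheses. The simple-epithelial bars reach 75% in H82 and all genes in H146, hair and inner root sheath lie at 5.88% or below, and all protein-coding genes at 80.5% and 77.2%.

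Within 10 kb of their TSSs, the keratins had less accessible sequence than other genes in both lines. Their median covered share in H82 was 2.50% (upper quartile 6.39%) and that in H146 was 4.73% (upper quartile 11.4%), against 12.5% and 10.9% for all protein-coding genes. For the simple-epithelial keratins the median was 17.4% in H82 and 19.1% in H146, and for the other 51 it was 2.41% and 3.84%. The basal and activated class had medians of 10.4% and 8.33%. The hair class had medians of 1.90% and 4.14%. No region lay within 10 kb of 8 keratins in either line (14.5%, against 5.79% of all genes), among them 5 of the 17 hair keratins.

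The order of the lines was the reverse of that over all genes. H146 had the higher covered share at 34 keratins (61.8%, against 40.5% of all genes) and H82 at 9 (16.4%, against 52.6%). H146 had more regions within 10 kb at 24 keratins (43.6%, against 21.3% of all genes), H82 at 11 (against 38.9%), and 20 keratins had equal numbers. The 10 kb windows of 39 of the 55 keratins overlap another keratin's window, so these counts are not independent of each other.

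In numbers of regions, the keratins of chromosome 12 carried the reversal, and in covered share it was found on both chromosomes. Of the 27 on chromosome 12, 18 had more regions in H146 and 2 in H82, and the covered share was higher in H146 at 22 and in H82 at 2. On chromosome 17, 6 of 28 had more regions in H146 and 9 in H82, with covered shares higher in H146 at 12 and in H82 at 7. On chromosome 12 the median keratin window was covered to 2.54% in H82 and 7.55% in H146, and on chromosome 17 to 2.37% and 3.26%. Among the 1011 other protein-coding genes of chromosome 12, H146 had more regions at 23.2% and H82 at 29.6%, but the covered share was higher in H146 at 505 and in H82 at 442, the same order as at the keratins. Among the 1158 others of chromosome 17, H146 had more regions at 17.9% and H82 at 51.7%, and the higher covered share at 25.9% and 69.9%.

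**Figure D3:**
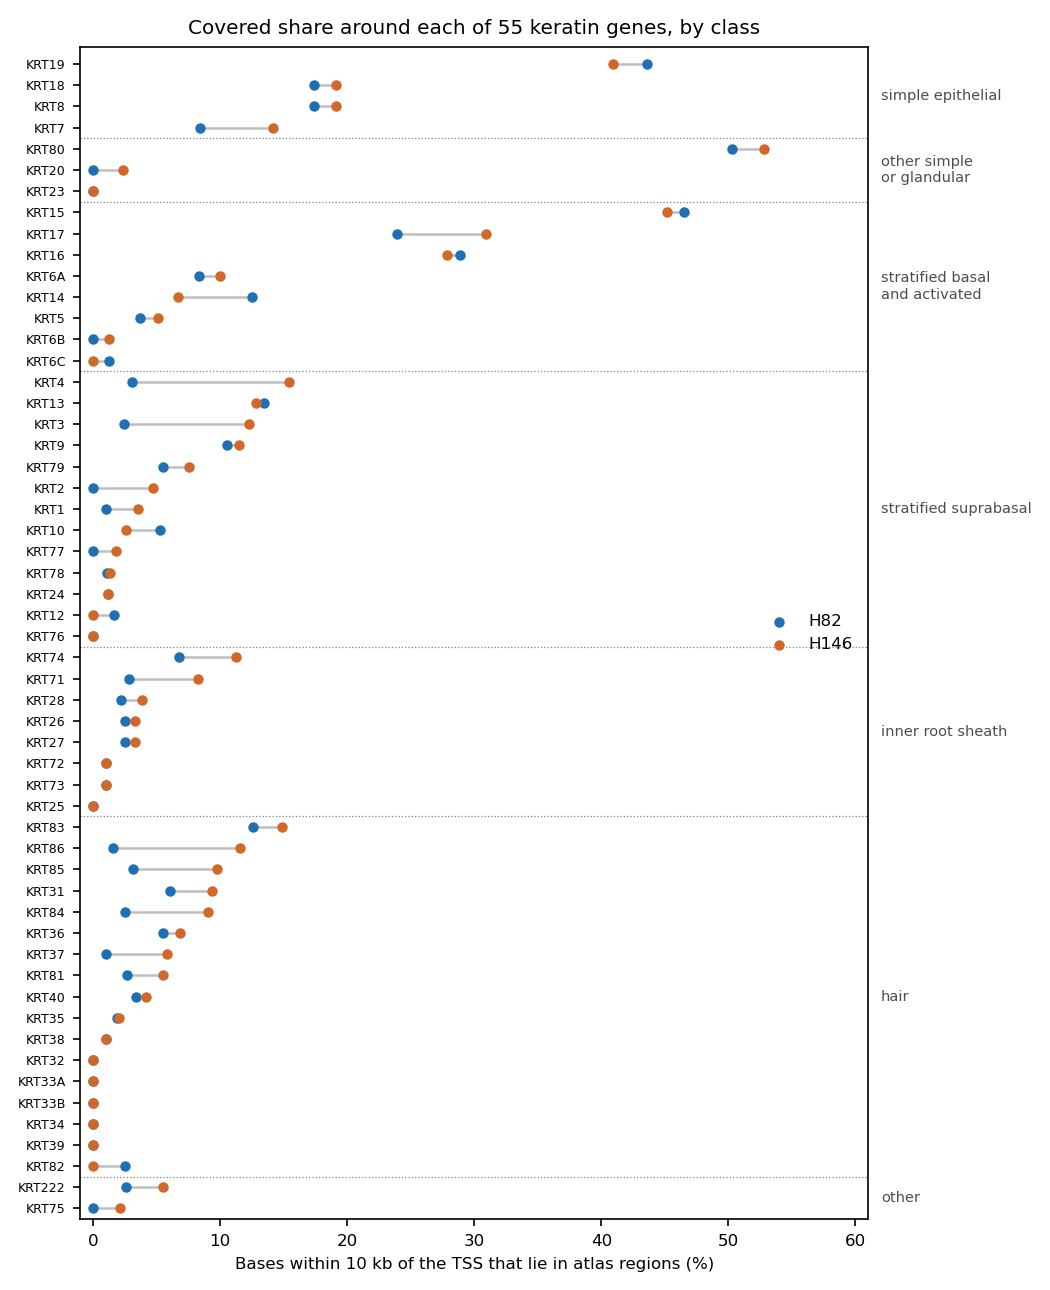
Percent of bases within 10 kb of the TSS that H82 regions (blue) and H146 regions (orange) cover for each of the 55 keratins, grouped by class and ordered within a class by the H146 value; grey lines join the lines' values. KRT80, KRT15 and KRT19 lie above 40% in both lines, and KRT4, KRT86 and KRT3 show the longest grey lines, with H146 higher.

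The numbers of regions differed by 3 or more between the lines at 5 keratins. H146 had more at KRT86 (8 regions against 1 in H82), KRT7 (5 against 2) and KRT81 (4 against 1). H82 had more at KRT16 (9 against 5) and KRT14 (5 against 2). KRT86 and KRT81, both hair cortex keratins, lie next to KRT7, and 2 of the KRT86 regions were also within 10 kb of KRT7. KRT86 had 1.58% of its window covered in H82 and 11.55% in H146, and at KRT81 it was 2.69% and 5.52%. KRT81, KRT83 and KRT86 are close copies of each other, so reads may be split among them.

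Counting each region once, 71 H82 regions and 97 H146 regions lay within 10 kb of a keratin TSS. An overlap of 1 bp or more with the other line was found for 53 of those in H82 (74.6%, against 59.3% of the whole H82 list) and for 53 of those in H146 (54.6%, against 70.5% of the whole H146 list). On chromosome 12 the H146 list had 63 such regions, 34 of them without an H82 counterpart, and the H82 list had 32, of which 4 had no H146 counterpart. On chromosome 17 it was 10 of 34 in H146 and 14 of 39 in H82. Most H82 keratin regions of chromosome 12 were thus also in H146, and the lists differed mainly by regions that H146 added.

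Regions of 1 line alone were narrow. Their median width was 278 bp in H82 and 339 bp in H146, and shared regions had medians of 628 bp and 699 bp. Over all regions, those of 1 line alone had medians of 377 bp in H82 and 315 bp in H146. By the position of the centre, 35 of 71 H82 keratin regions were intergenic, 16 intronic and 20 exonic, and in H146 it was 49, 23 and 25 of 97. The widest keratin region of either line was the 6912 bp region of H146 before KRT80, which measured 4339 bp in H82.

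Over the clusters themselves, the type II cluster on chromosome 12 (783.911 kb from KRT80 to KRT18) held 70 H82 regions and 110 H146 regions, a ratio of 1.57 for H146 over H82. Over the whole of chromosome 12 the ratio was 0.909, and over all chromosomes 0.841. Regions covered 7.0% of the cluster in H82 and 11.3% in H146. Only 6 of the H82 regions had no H146 counterpart, against 52 of those of H146. Among 3503 windows of 800 kb with at least 10 regions in the lists, 133 (3.80%) had a ratio of 1.5 or more, and on chromosome 12 it was 6 of 159 (3.77%).

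The difference ran through most of the type II cluster. H146 had more regions in 7 of its 8 bins of 100 kb, and the exception was the last, shorter bin at KRT8 and KRT18, with 20 H82 and 17 H146 regions. In that bin the covered share was still higher in H146, 32.1% against 22.5%. From the end of KRT7, which lies inside KRT86, to KRT78 there were 33 H82 and 68 H146 regions, covering 3.01% and 6.16%. This stretch holds the hair, inner root sheath and suprabasal type II keratins, and also KRT5, KRT6A, KRT6B, KRT6C and KRT75. From KRT80 to KRT7 there were 15 and 22.

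The type I cluster on chromosome 17 (970.178 kb) was even between the lines, with 67 H82 and 65 H146 regions covering 4.68% and 5.09%. The ratio of 0.97 for H146 over H82 compares with 0.793 over the whole chromosome. The cluster includes the array of KRTAP genes (322.281 kb), which held 14 H82 and 18 H146 regions. At its end from KRT13 to KRT17, which holds KRT15, KRT19, KRT9, KRT14 and KRT16, the order turned, with 31 H82 regions and 20 H146 regions covering 19.5% and 17.8%. Of those, 12 H82 and 3 H146 regions had no counterpart. From KRT33A to KRT36, the type I hair keratins, there were 4 H82 and 8 H146 regions. From KRT222 to KRT40 there were 12 and 13.

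At the edges of the clusters, TSS regions were about as common as over all genes. The clusters widened by 200 kb held 19 other protein-coding genes, KRTAP genes left out. Of these, 17 had a TSS region in H82 (against 80.5% of all genes) and 16 in H146 (against 77.2%). Both lines had one at 15 (against 75.4%). All 19 lay outside the clusters except ENSG00000264058, whose TSS region in H146 alone is the one described at KRT222. CCR7, a chemokine receptor gene, was the 1 gene with none in either line.

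**Figure D4:**
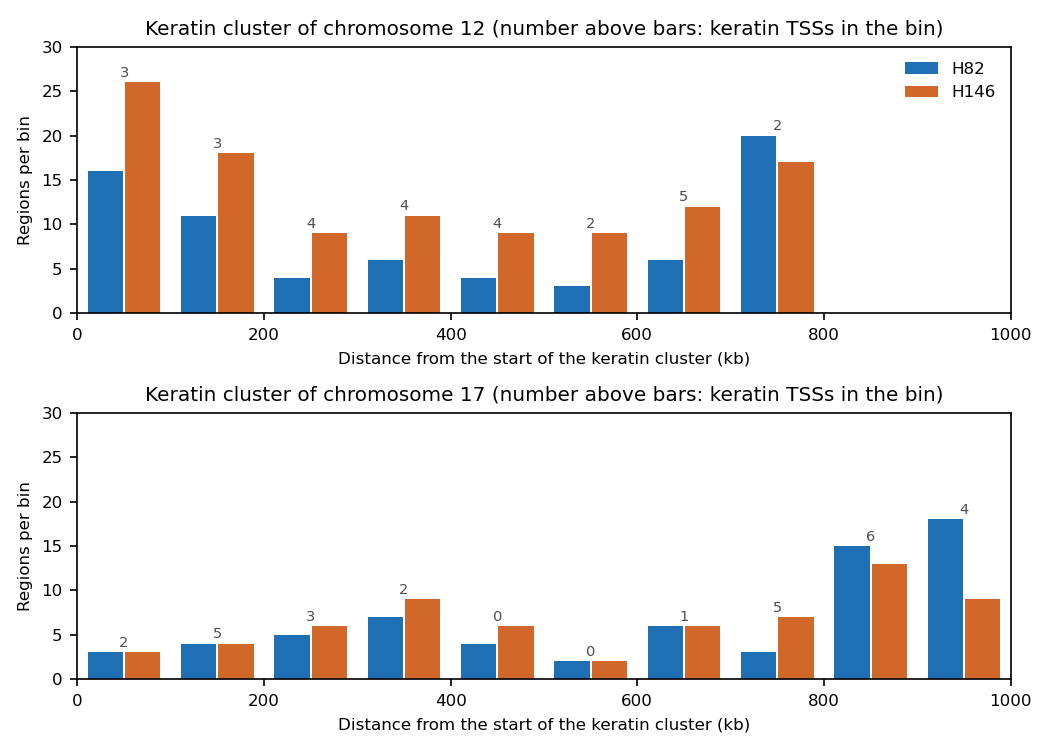
Number of regions per 100 kb bin along the keratin clusters of chromosome 12 (top) and chromosome 17 (bottom) against the distance from the cluster's start in kb, H82 in blue and H146 in orange, with the number of keratin TSSs above each bin; the last bin is shorter, 83.9 kb and 70.2 kb. H146 bars are taller in 7 of 8 bins of chromosome 12, and H82 bars are taller in the last 2 bins of chromosome 17.

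The reference sequence at the TSS set the keratins apart from other genes whatever the line. In the window from 250 bases before to 50 bases after the gene 5′ end, the median ratio of observed to expected CpG was 0.171 over the keratins and 0.696 over all protein-coding genes. The gene 5′ end lies 44878 bp from the canonical TSS at KRT8, 25345 bp at KRT86, 3639 bp at KRT15 and 3132 bp at KRT16. The canonical TSS also lay past the window's end at KRT40 (2809 bp), KRT36 (2636 bp), KRT7 (723 bp), KRT17 (267 bp) and KRT18 (247 bp). So it did at KRT5 (136 bp), KRT78 (98 bp), KRT13 (93 bp) and KRT72 (75 bp). For all of these genes the window values are not those taken at the canonical TSS. A ratio of 0.6 or more was found at 2 of 55 keratins (3.64%), KRT18 at 0.615 and KRT222 at 0.653, and at 58.3% of all genes. KRT19 came next at 0.558. The median GC content was 48.3% over the keratins and 60.3% over all genes.

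Keratins with a TSS region had windows of higher GC content at the gene 5′ end. The median was 60.2% at the 8 with a TSS region in both lines, 55.8% at the 8 with one in 1 line, and 47.0% at the 39 with none. The median CpG ratio was 0.264, 0.253 and 0.160. The ranges overlapped widely, since KRT79 had 67.3% GC with no TSS region and KRT15, with a wide region, had a CpG ratio of 0.0773.

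**Figure D5:**
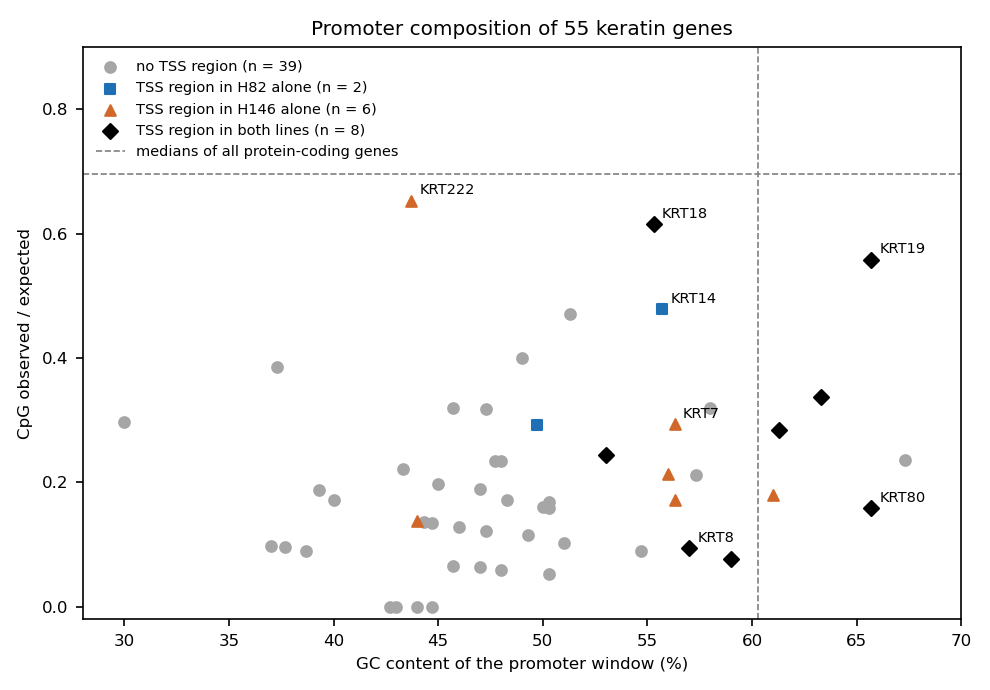
CpG observed over expected against GC content (%) in the 300-base window at the gene 5′ end of each of the 55 keratins, marked by TSS region in neither line (grey), H82 alone (blue), H146 alone (orange) or both lines (black); dashed lines are the medians of all protein-coding genes, 60.3% and 0.696. All keratins lie below the CpG median, and the grey points are gathered at low GC content.

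The TATA box word TATAAA was matched on either strand and with overlaps allowed, as were the CCAAT box, the GC box word GGGCGG, the AP-1 word TGANTCA, the GRHL word AACCGGTT, the TEAD word GGAATG, the FOXA word TGTTTAC and CAGATG, an E-box form read by NEUROD1. TATAAA was present in the promoter window of 23 of 55 keratins (41.8%), against 10.8% of all promoters of that length. It was present at 21 of the 39 keratins without a TSS region (53.8%), at 2 of the 16 with one in either line (12.5%), KRT14 and KRT16, and at 0 of the 4 simple-epithelial genes. The TATA words printed for KRT3 and KRT10 are examples of the former. Among the 16, the canonical TSS lies outside the window at KRT7, KRT8, KRT18, KRT5, KRT15, KRT16, KRT17 and KRT86. How the start used bears on these shares was not tested. GGGCGG was present at 11 keratins (against 52.4% of all promoters) and CCAAT at 29 (52.7%, against 35.9%). TGANTCA was present at 4 keratins, KRT8, KRT13, KRT14 and KRT17 (7.27%, against 6.38%). The KRT8 window lies at its gene 5′ end inside KRT18, away from its canonical TSS. The others were GGAATG at 10 keratins (18.2%, against 12.8%), CAGATG at 10 (18.2%, against 13%), TGTTTAC at 1, KRT8 (1.82%, against 2.78%), and AACCGGTT at 0 (against 0.13%).

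Within the regions near keratins, words were counted per kb of region and set beside all regions of chromosomes 12 and 17. TGANTCA occurred 0.575 times per kb in the H82 keratin regions (32 matches) and 0.475 times in those of H146 (36 matches), against 0.28 and 0.3. GGAATG occurred 0.899 and 0.858 times per kb, against 0.550 and 0.544. CAGATG occurred 0.827 and 0.792 times per kb, against 0.892 and 0.774. GGGCGG was less dense than in all regions, with 0.935 and 0.713 against 1.36 and 1.32. TATAAA occurred 0.162 and 0.277 times per kb against 0.387 and 0.449, CCAAT 1.19 and 1.06 against 1.10 and 1.19, and TGTTTAC 0.108 and 0.0792 against 0.123 and 0.159. AACCGGTT had 0 matches in the keratin regions of either line. A match of so short a word is not a binding site.

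Genes that act with keratins had TSS regions about as often as other genes. Of 18 genes that anchor filaments at desmosomes and hemidesmosomes, 14 had one in H82 and 15 in H146, and PPL, the plakin periplakin, had one in H146 alone. DSG1, DSG3 and DSG4, desmogleins of stratified epithelium and hair, had 0 regions within 10 kb in both lines. Of 14 transcriptional regulators of keratin genes, 11 had a TSS region in both lines and 3 in neither, namely TP63, EHF and TFAP2A. Within 10 kb of the gene 5′ end, TP63, the regulator of basal epithelial identity, had 1 region in H82 (2.60% covered) and 0 in H146. EHF had 0 and 1 (1.02%). TFAP2A, in contrast, had 5 regions within 10 kb in each line, covering 34.68% in H82 and 33.97% in H146, none of them within 1 kb of the TSS. Over the gene body with 10 kb, H82 and H146 had 26 and 21 regions at TP63, 5 and 8 at EHF, and 7 and 9 at TFAP2A. ELF3 had 42.92% and 43.87% of its window covered.

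The non-keratin intermediate filament genes, which include those of neurons and the nuclear lamina, had a TSS region at 13 of 15 in each line. NEFM, a neurofilament gene, had one in H82 alone, and GFAP, the astrocyte filament gene, in H146 alone. The median of their covered shares was 21.5% for H82 and 17.2% for H146, with the H82 value higher at 12 of 15 (against 52.6% of all genes), the opposite order to the keratins. The anchoring genes had the order of the keratins in covered share. It was higher in H146 at 10 (55.6%, against 40.5% of all genes) and in H82 at 5 (27.8%, against 52.6%). In number of regions they did not, with more in H82 at 6 (33.3%, against 38.9%) and in H146 at 5 (27.8%, against 21.3%). The KRTAP genes, whose products embed hair keratins, had a TSS region at 34 of 94 in H82 (36.2%) and 38 of 94 in H146 (40.4%), with 28 in both. Their covered share was higher in H146 at 42 (44.7%, against 40.5% of all genes) and in H82 at 29 (30.9%, against 52.6%), the order of the keratins. In number of regions the order was the opposite and that of all genes. H82 had more at 31 (33.0%, against 38.9% of all genes) and H146 at 24 (25.5%, against 21.3%). A TSS region in H146 alone was found at 10 (10.6%, against 1.86% of all genes) and in H82 alone at 6 (6.38%, against 5.09%). Among the KRTAP genes, KRTAP1-5, KRTAP10-3 and KRTAP12-2 had one in H146 alone, and KRTAP10-5 and KRTAP10-8 in H82 alone.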

How the data were processed

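ATAC-seq libraries of H82 and H146 cells, untreated or exposed to FHD-286, were grouped by the labels. Per the study's methods and processing notes, the authors trimmed reads (Trim Galore 0.4.4), aligned them to hg38 (Bowtie2 2.3.4), removed reads with equal start and orientation (Picard), called regions per sample (MACS2), filtered blacklisted regions and joined peaks closer than 500 bp. The deposited values were region starts and ends in bp, pooled over all libraries of a line. Pooling puts treated and untreated sites together, joining makes width a poor measure of a single site, and more or deeper libraries lengthen a list. Whether read ends were shifted for the transposase is not given in the sources used here. An edgeR test of FHD-286 on counts had been planned in case counts were held, and it was not run, since the deposited lists have none.

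The TSS was the 5′ end of the GENCODE 44 gene on hg38. Of 20033 protein-coding gene rows, 20007 had distinct symbols and were used. A region counted at a TSS within 1 kb, and the covered share was the percent of bases within 10 kb that lay in regions. Regions were shared if they overlapped by at least 1 bp. Coordinates are 1-based. Overlap code was tested on simulated intervals. Python 3.11.15, numpy 2.4.6, pandas 2.3.3 and matplotlib 3.10.9 were used.

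The members, classes and lists were chosen with earlier results of these data known. Named were the simple-epithelial keratins, keratins with a TSS region in either line, the 3 with the highest covered share per line, those differing by 3 or more regions, and from each other list up to 5 genes with a TSS region in 1 line. KRT3, KRT10, KRT13, KRT23, KRT79, CCR7, the desmogleins, TP63, EHF, TFAP2A and ELF3 were added after their values were seen, as were the stretches of the clusters, the windows of 800 kb, the flanking genes and the 8 sequences printed. Alternatives changed the distance from the TSS, the TSS definition, the window, the minimum width, the overlap and the span. One further neuroendocrine marker that was looked up is not reported here.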

Additional observations from a re-analysis of the deposited data

How the results depend on the processing

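The number of keratins with a TSS region depended on the distance allowed. With the TSS itself inside a region, H82 had 7 keratins and H146 had 8, the rest without the simple-epithelial genes had 4 in H82 and 5 in H146, and 0 keratins were H82-only and 1 H146-only. Within 500 bp, 1 was H82-only. Within 2 kb, the rest had 11 in H82, as they had with the TSS of every transcript. Within 5 kb, 29 keratins in H82 and 33 in H146 had a region, the rest had 25 and 29, and 4 were H82-only. With regions of at least 500 bp alone, H82 and H146 each had 8, the rest had 5 in each, and 0 were H82-only and 0 H146-only, since all 8 regions found in 1 line are narrower. Within 5 kb, 2.00% of the median keratin window was covered in H82 and 3.04% in H146. These medians were 3.14% and 5.90% within 20 kb, 2.29% and 5.19% over the gene body with 10 kb, and 1.12% and 3.23% with regions of at least 500 bp, so H146 stayed higher in these. Sharing was 67.6% in H82 and 50.5% in H146 with overlap of 50% of both regions, 87.2% and 75.6% with regions of at least 500 bp, 78.9% in H82 with sharing within 500 bp, and 66.7% in H82 within 5 kb. Regions covered 8.41% of the chromosome 12 cluster in H82 and 12.5% in H146 with 100 kb added to its ends and 5.69% and 8.71% with regions of at least 500 bp. On chromosome 17 it was 6.10% and 6.53%, and 3.75% and 4.18%, and 5.56% and 5.79% without the KRTAP array, an alternative added after the data were seen. The causes were not tested, apart from the widths. The remaining counts stayed within 1.5 times the reported ones. For example, 14 keratins in H82 and 18 in H146 had a region within 2 kb, and 15 and 18 with the TSS of every transcript. No paired analysis was possible because the lists carry no value per library, and for that reason no library could be left out. Depth per library was unknown, so a missing region is one that was not called, and a closed site cannot be told apart from one too shallowly read.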
